A study of Mus musculus with 6 samples.

Results

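The cluster of miR-183, miR-96 and miR-182 is a polycistron, a set of miRNA hairpins cut from a single primary transcript. It was examined here in small RNA from mouse fetal liver. Its members were the rows of the deposited miRNA table named mmu-miR-183-5p, mmu-miR-183-3p, mmu-miR-96-5p, mmu-miR-96-3p, mmu-miR-182-5p and mmu-miR-182-3p, the products of the 5p and 3p arms of each hairpin (the mouse prefix mmu is left out below). All 6 listed products were present, among 1626 miRNAs in the table. The table covers 6 libraries, 3 from wild-type embryos (WT, libraries 1 to 3) and 3 from embryos of genotype miR-144/451-/- (KO, libraries 4 to 6), which lack both copies of the erythroid miR-144/451 locus. All are of strain C57BL/6J, and the labels give no embryonic day. Each library was made from RNA of 5000000 fetal liver cells. The series' design text speaks of HITS-CLIP, which would count Argonaute-bound miRNAs, whereas the labels of the samples give miRNA-Seq with total RNA as the molecule; levels are read here as the latter. Whether the libraries of a genotype came from separate embryos or litters is not stated, so a p-value here reflects only the variation among these 6 libraries, some of which may be technical.

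The cluster is conserved across animals and is best known from sensory cells: photoreceptors, hair cells of the inner ear and olfactory neurons carry it at high levels, and changes in the seed of miR-96 cause hearing loss. It is also induced in activated lymphocytes and in many epithelial cells, where its 5p products act on the transcript of the transcription factor Foxo1. A miRNA pairs with its targets mainly through the seed, bases 2 to 8 from its 5′ end, so miRNAs with like seeds can share targets. In bulk fetal liver, which holds mostly erythroid precursors, fewer cells that carry a miRNA and less of it per cell cannot be told apart.

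The mature sequences show how alike the 3 guide strands are. They are shown because the seeds, in capitals, define which members can be grouped (RefSeq, GRCm38.p6; all 6 members matched by name).
mmu-miR-183-5p: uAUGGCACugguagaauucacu
mmu-miR-96-5p: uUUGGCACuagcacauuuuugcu
mmu-miR-182-5p: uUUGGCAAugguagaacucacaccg

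Counting from 1 at the 5′ end, the seeds of miR-96-5p and miR-182-5p differed by C8A alone, so bases 2 to 7 are the same. The seed of miR-183-5p differed from that of miR-96-5p by A2U alone, and from that of miR-182-5p by A2U and C8A. After the seed the resemblance ran the other way. There miR-183-5p and miR-182-5p were identical at 12 of the 14 positions they share, while miR-96-5p matched miR-183-5p at 6 of 14 and miR-182-5p at 5 of 15. Outside the cluster, RefSeq lists 1 mature mouse miRNA with the whole seed of miR-96-5p, miR-1271-5p, which is absent from the deposited miRNA table. RefSeq lists 0 with the whole seed of miR-183-5p or of miR-182-5p. miR-1271-5p shares bases 2 to 7 with miR-182-5p.

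The hairpins lie on the minus strand of chromosome 6 in GRCm38.p6, in the order Mir183 (30169668 to 30169737), Mir96 (30169446 to 30169551) and Mir182 (30165918 to 30165992) along the transcript. Mir183 and Mir96 are 116 bases apart, and 3453 bases separate Mir96 from Mir182, so the 3 hairpins fit in 3820 bases. In RefSeq all 3 lie within the span of the long non-coding RNA gene Mirc35hg (30158640 to 30174125). In GENCODE M21 they overlap no other gene, and lie between Nrf1, which ends at 30153458, and the long intergenic RNA Rncr4, which starts at 30172893. The hairpins are given with both mature arms in capitals, the 5p arm first, since the reads of the arms were very unequal.
miR-183 hairpin: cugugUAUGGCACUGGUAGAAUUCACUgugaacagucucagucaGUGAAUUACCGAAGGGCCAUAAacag
miR-96 hairpin: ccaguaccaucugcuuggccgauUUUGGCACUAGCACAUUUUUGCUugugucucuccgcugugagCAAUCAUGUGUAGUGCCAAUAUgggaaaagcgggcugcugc
miR-182 hairpin: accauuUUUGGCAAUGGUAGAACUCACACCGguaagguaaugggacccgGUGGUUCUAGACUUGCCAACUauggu

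The libraries held 16243894 to 27089133 miRNA counts. The products of the deleted locus took 17.6% to 24.1% of the counts in WT and 0.0214% to 0.0232% in KO, so each library matched its genotype label. All 6 erythroid and all 5 hepatocyte marker miRNAs were detected. Of the erythroid markers, miR-451a and miR-144-3p are products of the deleted locus, which held at most 0.0232% of the counts in KO. The source of those remaining reads was not tested. Levels are counts per 1000000 after TMM scaling (CPM), a scaling that sets the typical miRNA equal between libraries; without it, the median log2 fold of the miRNAs outside the locus was 0.34. WT library 1 stood apart: 13 of the 876 tested miRNAs were at least 3 times higher there than in any other library, against 0 or 1 for each of the other 5 libraries. These 13, named below in part with their values known, are typical of several tissues.

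The cluster was a minor part of the miRNA pool, and nearly all of it was miR-182-5p. By mean CPM miR-182-5p ranked 189 of 1626 miRNAs, miR-183-5p 460 and miR-96-5p 492, while the 3p products ranked between 944 and 1238. Together the 6 products held 6426, 3785 and 5700 counts in WT libraries 1 to 3 and 3572, 2914 and 6156 counts in KO libraries 4 to 6. The miR-182 hairpin gave 91.6% ± 1.15 of these counts in WT and 92.6% ± 1.53 in KO (SD, n = 3 each). The miR-183 hairpin gave 4.79% ± 1.32 and 4.12% ± 0.601, and the miR-96 hairpin 3.61% ± 0.371 and 3.31% ± 0.958 (SD, n = 3 each, WT before KO). The mature products of this single transcript were thus far from equal in reads. How well each sequence is captured in library preparation was not tested, so these shares compare reads and not molecules.

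miR-182-5p, the most abundant member, stood at 316.9, 144.9 and 262.1 CPM across WT libraries 1 to 3, against 166.0, 146.6 and 222.2 CPM across KO libraries 4 to 6. WT libraries 1 and 3 lay above every KO library, and WT library 2 lay below every KO library, so the genotypes overlapped. WT averaged 241 ± 87.8 CPM and KO averaged 178 ± 39.3 CPM (SD, n = 3 each). The log2 fold was -0.44 with an SE of 0.32, and its adjusted p in the edgeR quasi-likelihood test was 0.644 (Benjamini-Hochberg). The difference did not pass the test. The gap between WT library 2 and KO library 5, the lowest KO library, was small beside that to the others.

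miR-183-5p, which shares most of its length with miR-182-5p, stood at 21.9, 5.97 and 10.8 CPM across WT libraries 1 to 3, against 7.77, 6.96 and 7.89 CPM across KO libraries 4 to 6. The KO libraries lay close together, with the highest 1.13 times the lowest, whereas in WT the highest was 3.66 times the lowest. WT library 1 alone was far above all others, and WT library 2 was the lowest of all 6. WT averaged 12.9 ± 8.15 CPM and KO averaged 7.54 ± 0.507 CPM (SD, n = 3 each). The log2 fold was -0.77 with an SE of 0.45, and its adjusted p in the edgeR quasi-likelihood test was 0.576 (Benjamini-Hochberg).

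miR-96-5p, the member whose seed is altered in inherited hearing loss, stood at 11.9, 5.18 and 11.5 CPM across WT libraries 1 to 3, against 5.90, 6.74 and 5.48 CPM across KO libraries 4 to 6. WT libraries 1 and 3 were again above every KO library and WT library 2 below them. WT averaged 9.52 ± 3.76 CPM and KO averaged 6.04 ± 0.641 CPM (SD, n = 3 each). The log2 fold was -0.65 with an SE of 0.34, and its adjusted p in the edgeR quasi-likelihood test was 0.523 (Benjamini-Hochberg).

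**Figure D1:**
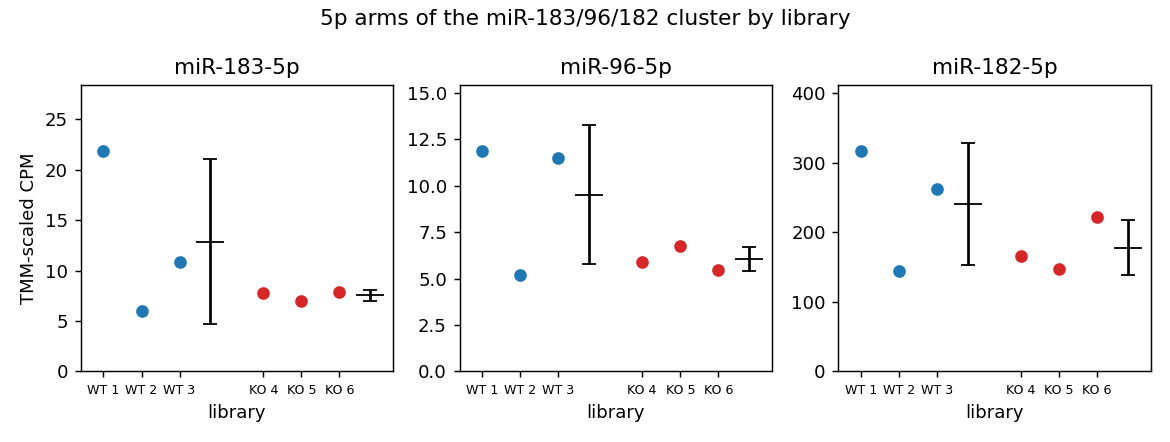
TMM-scaled CPM (linear axes from 0) of miR-183-5p, miR-96-5p and miR-182-5p in each library; points are libraries (WT blue, KO red), and the bar beside each group is its mean with the SD, n = 3. In all 3 panels WT libraries 1 and 3 lie above the KO libraries and WT library 2 below them, as for miR-182-5p at 316.9, 262.1 and 144.9 CPM.

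Of the 3 members that could be tested, 0 were called between the genotypes at an adjusted p under 0.05 in edgeR. With all 6 libraries, 0 were below 0.05 before adjustment. The unadjusted edgeR p was 0.131 for miR-183-5p, 0.0961 for miR-96-5p and 0.217 for miR-182-5p. DESeq2 and limma-voom also called 0. Over all 876 tested miRNAs 0.799% were called, 3 of them products of the deleted locus. The libraries of the 2 genotypes did not overlap for 21.8% of the tested miRNAs and for 0 of these 3. All 3 log2 folds were below 0, and 11.4% of the tested miRNAs had a log2 fold at or under that of miR-182-5p, 5.59% at or under that of miR-96-5p and 4.0% at or under that of miR-183-5p. The members come from the same transcript and the same libraries, so their shared sign is not 3 separate observations.

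Single WT libraries set the size of these folds. Without WT library 2 the log2 folds were -1.20 for miR-183-5p (SE 0.38), -1.01 for miR-96-5p (SE 0.27) and -0.77 for miR-182-5p (SE 0.28), with edgeR adjusted p of 0.408, 0.302 and 0.46. Before adjustment, edgeR p in that fit was 0.016, 0.0072 and 0.028. The library left out there held the lowest value of each of the 3 members. Without WT library 1 the log2 folds were -0.15 (SE 0.31), -0.46 (SE 0.37) and -0.19 (SE 0.32), with edgeR adjusted p of 0.867, 0.718 and 0.847. With no scaling factor they were -0.40 (SE 0.44), -0.29 (SE 0.34) and -0.08 (SE 0.31). Taken against the median of all other miRNAs outside the locus, that setting gave -0.74, -0.63 and -0.42, close to the -0.76, -0.64 and -0.42 after TMM scaling.

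**Figure D2:**
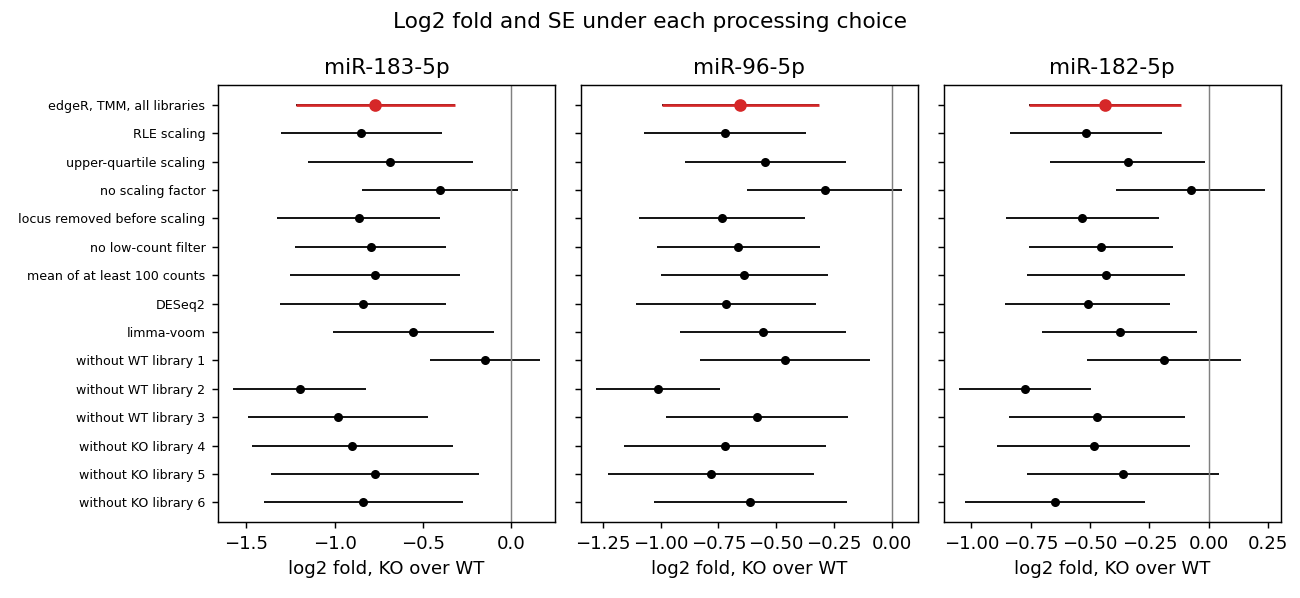
Log2 fold of KO over WT (horizontal axis, with the SE as bars) for miR-183-5p, miR-96-5p and miR-182-5p under each processing choice; the red point is the TMM-scaled edgeR fit of all 6 libraries. All points lie below 0; those for miR-183-5p run from -1.20 without WT library 2 to -0.15 without WT library 1.

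The 3 guide strands varied alike over the WT libraries and less so over the KO libraries. Relative to the mean of the 6 libraries on the log2 scale, miR-182-5p stood at 0.66, -0.47 and 0.39 in WT libraries 1 to 3 and at -0.27, -0.45 and 0.15 in KO libraries 4 to 6. miR-183-5p stood at 1.25, -0.62 and 0.24 in WT and at -0.24, -0.40 and -0.22 in KO, and miR-96-5p at 0.70, -0.50 and 0.65 in WT and at -0.31, -0.12 and -0.42 in KO. By these values all were highest in WT library 1 and lowest in WT library 2. The members parted in KO library 6, where miR-182-5p was above its mean and the other 2 below theirs. Among the KO libraries miR-182-5p was highest in KO library 6 and lowest in KO library 5, and miR-96-5p the reverse. Counting error was small beside these differences for miR-182-5p. Its 3499 counts in WT library 2 are 129.2 per 1000000 library counts (Wilson 95% interval 125.0 to 133.5), and its 5799 in WT library 1 are 279.6 (272.5 to 286.9). For miR-183-5p, the 144 counts of WT library 2 give 5.32 (4.52 to 6.26) and the 400 of WT library 1 give 19.3 (17.5 to 21.3). The intervals of miR-96-5p in WT library 2 (3.87 to 5.50, 125 counts) and KO library 6 (5.05 to 7.01, 143 counts) overlapped in part. Such an overlap is not a test of which is lower. After TMM scaling these libraries stood at 5.18 and 5.48 CPM for miR-96-5p. The intervals of miR-96-5p in WT library 1 (9.16 to 11.95) and WT library 3 (8.845 to 11.45) also overlapped, and its highest library is not settled. After TMM scaling, which these intervals leave out, WT library 2 and KO library 5 were close. They stood at 144.9 and 146.6 CPM for miR-182-5p, and at 5.97 and 6.96 CPM for miR-183-5p. Which of these libraries is lower was not tested.

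Few miRNAs shared the order seen in the cluster. WT library 2 was the lowest of the 6 libraries for 10.4% of the tested miRNAs. The fuller order, with WT libraries 1 and 3 above every KO library and WT library 2 below every KO library, held for 6 of 876 tested miRNAs (0.685%), and 3 of the 6 were the guide strands of this cluster. miR-3535, miR-101b-5p and miR-452-5p made up the rest (named with their values known). This order was itself noticed in the values of the members, so the count describes these libraries and is no test. In counts scaled to the library total WT library 2 was still the lowest for all 3 members, but only miR-96-5p kept the full order, since WT library 3 then stood at 229.1 per 1000000 for miR-182-5p against 241.2 in KO library 6, and at 9.45 for miR-183-5p against 9.48 in KO library 4.

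The proportions of the guide strands were next compared between the genotypes, a measure that needs no scaling because both counts come from the same library. Reads of miR-182-5p outnumbered those of miR-183-5p by 14.5, 24.3 and 24.2 times in WT libraries 1 to 3 and by 21.4, 21.1 and 28.1 times in KO libraries 4 to 6. Against miR-96-5p they were more numerous by 26.7, 28.0 and 22.8 times in WT and by 28.1, 21.8 and 40.5 times in KO. Between miR-183-5p and miR-96-5p the ratio was 1.84, 1.15 and 0.939 in WT and 1.32, 1.03 and 1.44 in KO. miR-182-5p was thus the higher of each pair in 6 of 6 libraries. miR-183-5p was higher than miR-96-5p in 5 of 6, with ratios from 1.03 to 1.84, and lower in WT library 3. The order of the latter pair is therefore not settled beyond the spread between libraries.

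For each of these 3 proportions the libraries of the genotypes overlapped, and the difference was smaller than the larger SD of the genotypes. On the log2 scale, with 1 count added to each, the ratio of miR-182-5p to miR-183-5p was 4.35 ± 0.43 in WT and 4.53 ± 0.24 in KO (SD, n = 3 each), a difference of 0.19 (exact two-sided permutation p = 0.6). For miR-182-5p to miR-96-5p it was 4.68 ± 0.15 and 4.86 ± 0.45 (SD, n = 3 each), a difference of 0.18 (exact permutation p = 0.7). For miR-183-5p to miR-96-5p it was 0.33 ± 0.50 and 0.32 ± 0.25 (SD, n = 3 each), a difference of -0.0095 (exact permutation p = 1.0). Adjusted over the 3 ratios by Benjamini-Hochberg, each exact permutation p was 1.0. The smallest p that 3 against 3 libraries can give is 0.1, so this design could not reach 0.05.

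The 3p products, the strands usually discarded when the duplex is loaded, were close to the limit of detection. miR-183-3p had 5, 10 and 11 counts in WT libraries 1 to 3 and 3, 6 and 5 counts in KO libraries 4 to 6. miR-182-3p had 5, 3 and 7 counts in WT and 4, 4 and 3 in KO. miR-96-3p had 0, 4 and 0 counts in WT and 2, 2 and 1 in KO. With 0 counts the level can still be up to 0.145 per 1000000 counts in WT library 1 and 0.131 in WT library 3, taking 3 counts as the upper limit. At these counts a difference between the genotypes was not detectable, and the 3 products did not pass the low-count filter. With that filter removed edgeR gave adjusted p of 0.791, 0.915 and 0.974 for miR-183-3p, miR-182-3p and miR-96-3p.

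The preference for the 5p arm differed between the hairpins. Over all 6 libraries miR-182-5p had 26278 counts against 26 of miR-182-3p, so the 3p arm made up 0.0988% of the hairpin's reads (Wilson 95% interval 0.0675 to 0.145). For miR-96 the counts were 954 and 9, a 3p share of 0.935% (0.493 to 1.77), and for miR-183 they were 1246 and 40, a share of 3.11% (2.29 to 4.21). These intervals do not overlap between any pair of hairpins, but they cover counting error only, and without molecular identifiers several reads can stem from 1 molecule. By library the 3p share of miR-183 ran from 1.23% to 6.49%, that of miR-96 from 0% to 3.1%, and that of miR-182 from 0.0517% to 0.151%. miR-182 lay below both others in every library except WT libraries 1 and 3, where miR-96-3p had 0 counts. Among the 248 hairpins with both arms listed and at least 1000 counts, the median share of the minor arm was 4.34%, and 17 had a lower share than miR-182 and 110 a lower share than miR-183. The ratio of the arms could not be tested between the genotypes as designed, because 0 of the 3 hairpins reached a mean of 10 counts for each arm. With a minimum of 1 count, limma's trend method gave adjusted p of 0.962, 0.867 and 0.984 for miR-183, miR-96 and miR-182 among 450 hairpins.

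**Figure D3:**
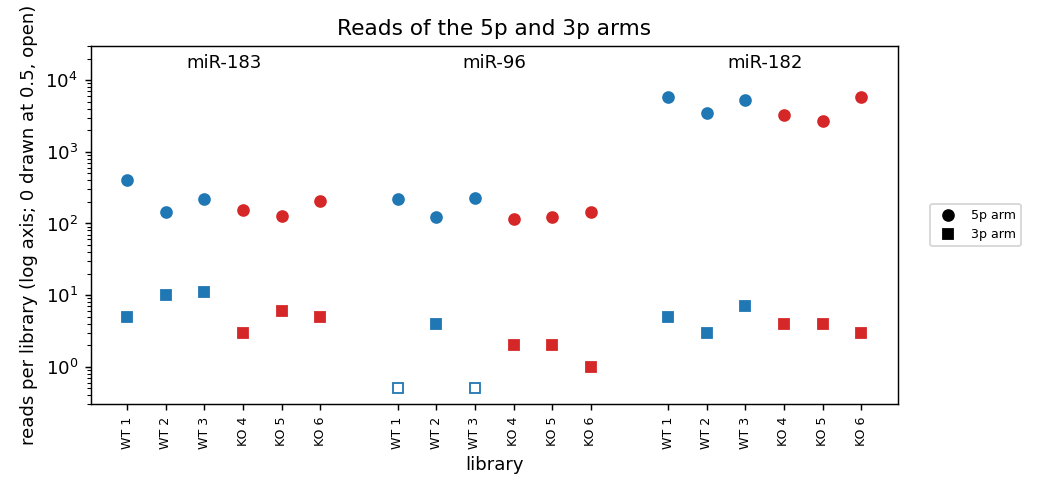
Reads per library (log axis) of the 5p arm (circles) and 3p arm (squares) of miR-183, miR-96 and miR-182 in WT (blue) and KO (red) libraries; open squares drawn at 0.5 are counts of 0. The 5p arms lie between 117 and 5799 counts and the 3p arms between 0 and 11.

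The miRNAs whose level followed miR-182-5p most closely were sought by the SD, over 6 libraries, of the log2 ratio to miR-182-5p, among 463 miRNAs with a mean of at least 10 CPM. The 5 closest were miR-10a-5p (SD 0.21), which lies in a Hox cluster, miR-199a-5p (0.23), miR-145a-3p (0.24), miR-214-3p (0.24) and miR-199a-3p (0.24). The median over the 463 was 0.59. miR-183-5p came at place 14 with an SD of 0.33, and miR-96-5p, whose mean is under 10 CPM, had an SD of 0.32. The cluster's own members were therefore not the nearest to miR-182-5p by this measure. Both have far fewer counts than miR-182-5p, and the part of counting error in their SD was not tested. miR-10a-5p stood at 707, 485 and 857 CPM across WT libraries 1 to 3, against 489.5, 445.5 and 622 CPM across KO libraries 4 to 6, with a log2 fold of -0.40 (SE 0.25; edgeR adjusted p = 0.598).

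miR-199a, miR-214, miR-143 and miR-145 are abundant in mesenchymal cells such as fibroblasts and stellate cells. The 5 mesenchymal marker miRNAs summed to 2741, 2286 and 3156 CPM across WT libraries 1 to 3 and to 2052, 2192 and 2979 CPM in KO libraries 4 to 6. Like miR-182-5p, these sums were higher in WT libraries 1 and 3 and KO library 6 than in the rest. The sums were highest in WT library 3 and lowest in KO library 4, whereas miR-182-5p was highest in WT library 1 and lowest in WT library 2. miR-143-3p, the most abundant of the 5, stood at 1742 CPM in WT library 1, 2219 in WT library 3 and 2131 in KO library 6. miR-183-5p and miR-96-5p were below their means in KO library 6. All 5 markers were tested and 0 were called, beside 0.799% of all 876 tested miRNAs. Their median log2 fold was -0.24, beside -0.014 for all 873 tested miRNAs outside the locus. The part of mesenchymal cells in the level of the cluster was not tested.

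Some neural miRNAs varied more widely between the libraries than the cluster did. miR-9-5p, a miRNA of neural progenitors, stood at 424, 18.6 and 69.7 CPM across WT libraries 1 to 3, against 32.3, 16.4 and 93.5 CPM across KO libraries 4 to 6. It was highest in WT library 1, as the 3 guide strands were, and low in WT library 2 and KO library 5. Unlike the guide strands, miR-9-5p was higher in KO library 6 than in WT library 3. miR-124-3p, the main miRNA of neurons, named after its values were seen, reached 7.81 CPM in WT library 1 but no more than 1.07 CPM elsewhere, with a lowest value of 0.276 CPM. Muscle and other miRNAs stood apart in that library too. miR-206-3p, a skeletal muscle miRNA, reached 203.8 CPM there, against 6.97 to 41.8 CPM in the rest, and miR-1a-3p 174 CPM, against 5.41 to 37.3 CPM. miR-215-5p, known from intestine and kidney, reached 126 CPM, against 2.07 to 12.9 CPM, and miR-205-5p, a miRNA of stratified epithelium, 11.0 CPM, against 0.25 to 1.51 CPM. The anomaly of WT library 1 was thus not limited to neural miRNAs. The other abundant members of the neural list did not follow this course. miR-128-3p stood at 462, 495 and 429 CPM in WT and at 556, 561 and 604 CPM in KO, and miR-219a-5p at 68.0, 85.3 and 65.1 CPM in WT and at 74.4, 90.7 and 56.2 CPM in KO. The 7 neural and sensory markers summed to 1056, 625 and 598 CPM in WT and to 693, 693 and 788 CPM in KO. Of these 7, 0 were called, beside 0.799% of all 876 tested miRNAs. Their median log2 fold was -0.24, beside -0.014 for the 873 tested miRNAs outside the locus. The cluster's folds without WT library 1 are given above; the part of RNA from neural, muscle or other tissue in its level was not tested.

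**Figure D4:**
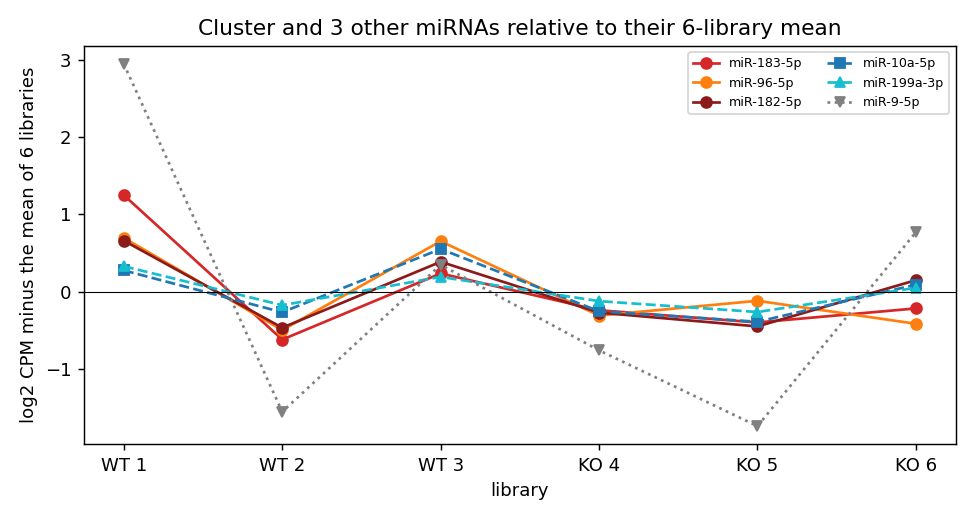
Log2 CPM minus the mean of the 6 libraries (vertical axis) for the 3 guide strands (solid), miR-10a-5p and miR-199a-3p (dashed) and miR-9-5p (dotted); the lines only link points of the same miRNA, since libraries have no order. The guide strands reach 0.66 to 1.25 in WT library 1 and -0.47 to -0.62 in WT library 2.

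The miRNA hairpins nearest the cluster on chromosome 6 were compared to see whether they shared its course. On the side of higher coordinates the nearest is Mir335, in an intron of the imprinted gene Mest, 571.6 kb away (30741299 to 30741396, plus strand). miR-335-5p stood at 1159, 1582 and 2897 CPM across WT libraries 1 to 3 and at 1705, 1781 and 3058 CPM in KO libraries 4 to 6, a log2 fold of 0.21 (SE 0.39; edgeR adjusted p = 0.904). Unlike the cluster it was lowest in WT library 1. Next comes Mir29a, 892.9 kb away (31062660 to 31062747, minus strand), whose miR-29a-3p, known for repressing collagen genes, had a log2 fold of 0.04 (SE 0.17). On the other side lie Mir129-1 and Mir592. miR-129-5p, a product of 2 hairpins of the genome, stood at 1.10 to 1.80 CPM over the 6 libraries, and miR-592-5p at 1.11 to 2.40 CPM, with a log2 fold of -0.62 (SE 0.31; edgeR adjusted p = 0.513).

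Other miRNAs described as acting on Foxo1 or Foxo3 were considered as a group, since these factors are the best known targets of the cluster. All 13 were tested and 0 were called, with 5 above and 8 below 0 and a median log2 fold of -0.04. Over the 873 tested miRNAs outside the locus 416 were above and 457 below 0, with a median of -0.014. Of all 876 tested miRNAs 0.799% were called. The 3 most abundant of the 13, named with their values known, had log2 folds of -0.20 (miR-486a-5p, an erythroid miRNA), 0.02 (miR-21a-5p, widely expressed) and -0.55 (miR-223-3p, a myeloid miRNA). No target transcript was measured in these libraries.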

How the data were processed

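Small RNA from fetal liver was sequenced in 3 WT and 3 KO libraries; groups follow the titles and genotype labels. The authors deposited raw read counts per mature miRNA and a percent column per library, which equalled count over library total to within 5.0e-09 and was not analysed further. The submitters' processing notes name cutadapt; the aligner, the miRNA annotation, the build and the treatment of reads matching several miRNAs are not given in the sources used here. No other miRNA had counts within 5% of a 5p member in every library.

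Counts were fitted over the whole table in R 4.3.3 with edgeR 4.0.16 (TMM, filterByExpr, quasi-likelihood F-test), which kept 876 miRNAs and left out 750, with Benjamini-Hochberg adjustment; SE is the absolute log2 fold over the square root of F. The alternative tests were limma-voom (limma 3.58.1) and DESeq2 1.42.0. Ratios of members used an exact permutation test over 20 assignments (scipy 1.17.1), and arm ratios limma's trend method. The fits were tested on simulated data. Named miRNAs were all members, seed sharers, the nearest hairpins, the 5 miRNAs most like miR-182-5p and the 3 most abundant of the epithelial and neural lists; any others were chosen with their values known, as the text says; mature sequences were matched by name for 1376 of 1626 miRNAs. Members and lists were chosen with earlier results of these data known.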

Additional observations from a re-analysis of the deposited data

How the results depend on the processing

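The log2 folds of the 3 guide strands stayed below 0 and uncalled under all 14 alternatives each. Leaving out one library gave -1.20 to -0.15 for miR-183-5p, -1.01 to -0.46 for miR-96-5p and -0.77 to -0.19 for miR-182-5p, and edgeR, DESeq2 or limma adjusted p over all alternatives lay between 0.302 and 0.905. The number of miRNAs called over the whole table was 7; it was 4 with RLE and with upper-quartile scaling, 1 when the locus was taken out ahead of scaling (its products are then not tested), 15 with DESeq2, 61 on library totals alone (median log2 fold of the miRNAs outside the locus 0.34), and 3 to 4 without one library. The cause of these changes was not tested. The differences of the log2 ratios changed sign with single libraries: without one library they ran from -0.059 to 0.31 for miR-182-5p to miR-183-5p (below 0 without WT library 1), from -0.060 to 0.39 for miR-182-5p to miR-96-5p (below 0 without KO library 6), and from -0.22 to 0.26 for miR-183-5p to miR-96-5p (above 0 without WT library 1 and, at 0.13, without KO library 5). No paired analysis was possible because the libraries are numbered 1 to 3 in WT and 4 to 6 in KO and share no number. Depth limits the 3p products, at 0 to 11 counts per library. Arm-ratio alternatives other than the minimum of 1 count tested 0 of the 3 hairpins and gave no value.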

Other observations

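The epithelial and neuroendocrine miRNAs, another group in which the cluster is often found, followed no single course. miR-429-3p stood at 241, 223 and 499.8 CPM across WT libraries 1 to 3, against 136, 232 and 295 CPM across KO libraries 4 to 6 (log2 fold -0.54, SE 0.41; edgeR adjusted p = 0.647). miR-200b-3p, from the same family, stood at 187, 168 and 382 CPM in WT and at 114, 140.4 and 268 CPM in KO. Both were highest in WT library 3, and so were miR-200a-3p at 289.2 CPM and miR-375-3p at 91.66 CPM, named with their values known. Others of the list, named with their values known, were highest in WT library 1 as the cluster was: miR-200c-3p, which stood at 83.4 to 133.1 CPM elsewhere, miR-203-3p at 119.8 against 84.7 to 104.2 CPM, miR-205-5p, and by a narrow margin miR-141-3p. Unlike the cluster, miR-203-3p had all 3 WT libraries above every KO library, with WT library 2 at 95.73 CPM against at most 92.85 CPM in KO. Such a lack of overlap held for 21.8% of the tested miRNAs. The 5 hepatocyte markers were also highest in WT library 3, summing to 37620, 60200 and 136800 CPM in WT and to 45230, 52700 and 106600 CPM in KO. miR-7a-5p, the most abundant of the epithelial and neuroendocrine list, averaged 4380 ± 715 CPM in WT, against 5325 ± 981 CPM in KO (SD, n = 3 each; log2 fold 0.28, SE 0.18; edgeR adjusted p = 0.602). Of the 9 miRNAs in that list 0 were called, with 3 above and 6 below 0 and a median log2 fold of -0.22.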
